A study of Homo sapiens with 24 samples.

Results

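The 6 genes described here decide much of how close a cell stands to mitochondrial cell death, and they are the survival genes BCL2, BCL2L1, BCL2L2 and MCL1 and the effector genes BAX and BAK1. They were found by gene symbol in the 4 count tables of the study, 1 for each cell line, and 6 of 6 are listed in every table, among 16795 genes listed in at least 1. The cells were established human lines of small-cell lung cancer, a lung tumour with neuroendocrine features: H187 and H209, which the study names ISL1 high, and H82 and SHP-77, which it names ISL1 low. Each line was grown for 24 h with 0.1 nM lurbinectedin or with the solvent DMSO, in triplicate, which gives 24 libraries in 8 groups of 3. Lurbinectedin is a DNA-binding drug given in small-cell lung cancer that is known to block transcription, and the labels name no genetic change made in any group. ISL1 class is carried by only a pair of lines on each side, so a difference between the classes holds for these 4 lines.

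The survival proteins sit on the mitochondrial surface and hold the effectors BAX and BAK1 in check. When BH3-only proteins such as BIM (gene BCL2L11), PUMA (BBC3) and NOXA (PMAIP1) are made, they occupy the survival proteins, the effectors open the outer mitochondrial membrane, and released cytochrome c switches on caspases. Small-cell lung cancer cells are known for high BCL2, and MCL1 is known as a short-lived protein whose RNA turns over fast. RNA levels, as measured here, say nothing of how much protein is made or bound.

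Libraries held 24226553 to 36415190 counts, and the genes tested numbered 14421 for H209, 14190 for SHP-77, 14023 for H187 and 13516 for H82. ISL1 matched the names of the classes: its level, in CPM (counts scaled to a common library total), lay between 159 and 256 in the 12 libraries of H187 and H209 and between 0.503 and 4.98 CPM in those of H82 and SHP-77. Of 9 neuroendocrine markers, 8 are listed for H187 and H209 and 7 for H82 and SHP-77, with summed levels of 2215 to 2624, 2198 to 2371, 828 to 896 and 2994 to 3295 CPM. CHGA is in none of the 4 tables, GRP is not listed for H82 and NEUROD1 is not listed for SHP-77. Of 10 markers of fibroblasts, leukocytes and endothelium, 2 or 3 are listed per line, and their sum was between 1.89 and 9.96 CPM in every library. Levels below are CPM on 1 scale set over all 24 libraries, as mean ± SD with n = 3. Effects of the drug are log2 fold changes ± SE from a fit of each line alone, so they can differ slightly from the ratio of the printed CPM. Levels and effects are relative to the other genes of a library and do not give the amount of RNA per cell.

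BCL2, the gene first found at a lymphoma translocation, was close to absent in 1 line and abundant in the other 3. It spans 196 kb of hg38 chromosome 18 (63123346 to 63319380, minus strand). Under DMSO its 3 libraries read 158, 154 and 174 CPM in H187, 152, 159 and 151 CPM in H209 and 145, 144 and 146 CPM in SHP-77. In H82 they read 1.06, 0.751 and 0.584 CPM, from 17 to 36 counts each. No library of H82 came near the range of the other lines, and in bulk RNA fewer cells with the transcript cannot be told apart from less of it per cell. The level in H82 was 199-fold lower than in H187 (log2 difference 7.63 ± 0.09, adjusted p = 1.4e-32), 189-fold lower than in H209 and 177-fold lower than in SHP-77. H187 stood above SHP-77 by 0.17 ± 0.05 (adjusted p = 0.0019). H209 could not be placed against either neighbour: it differed from H187 by 0.07 on the log2 scale (adjusted p = 0.14) and from SHP-77 by 0.09 (adjusted p = 0.072). The first of these passed with DESeq2 (0.045) and without H187 DMSO library 2 (0.044), the other with the GC correction (0.025) and without H187 DMSO library 3 (0.040). BCL2 thus does not sort by ISL1 class in these lines, since SHP-77, named ISL1 low, held nearly the level of H187 and H209. The start region of BCL2 is shown because its RNA differed most between lines. It is the 250 bases before the gene's start in RefSeq (GRCh38.p14, chr18:63319770-63320019, minus strand, read 5′ to 3′), which lies upstream of the gene as drawn in the deposited tables, and capitals mark each CG pair.
BCL2: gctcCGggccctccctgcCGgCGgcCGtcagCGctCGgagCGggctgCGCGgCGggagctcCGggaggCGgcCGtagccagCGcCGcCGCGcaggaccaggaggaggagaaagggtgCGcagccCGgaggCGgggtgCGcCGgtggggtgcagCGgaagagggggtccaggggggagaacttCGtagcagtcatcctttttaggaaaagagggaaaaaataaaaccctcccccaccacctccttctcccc
The stretch holds 24 CG pairs and is 70% G or C. Of all 35116 RefSeq start windows of that length, 23.7% hold at least as many CG pairs, so this richness is common. The GC box GGGCGG, sought on both strands, does not occur in it, nor do the TATA box letters TATAAA, the box read as CCAAT or the E-box read as CACGTG.

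BCL2L1, which encodes BCL-XL, was higher in both ISL1-high lines than in both ISL1-low lines. It lies on hg38 chromosome 20 (31664452 to 31723999, minus strand). Under DMSO H209 was highest at 146 ± 3.23 CPM and H187 next at 121 ± 3.87, against 67.9 ± 3.13 in SHP-77 and 61.5 ± 2.62 in H82. All 6 DMSO libraries of H187 and H209 lay above all 6 of the other lines. The smallest difference across the classes was 0.83 ± 0.05 between H187 and SHP-77 (adjusted p = 2.0e-16), and the largest was 1.25 ± 0.05 between H209 and H82. Within the ISL1-low pair, SHP-77 exceeded H82 by 0.14 ± 0.05 (adjusted p = 0.0070). That call ended without SHP-77 DMSO library 1 (adjusted p = 0.054) and after a correction for the GC content of transcripts (adjusted p = 0.70). An antisense gene, ABALON, overlaps BCL2L1 and is listed in 3 of the 4 tables. The strand setting of the counting is not given in the sources used here, so reads of the pair may not be fully told apart.

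BCL2L2 encodes BCL-W, a survival protein known for its part in sperm and nerve cells, and the classes stood the other way round from BCL2L1: all 6 DMSO libraries of H187 and H209 lay below all 6 of H82 and SHP-77. It lies on hg38 chromosome 14 (23306762 to 23311759, plus strand) and is overlapped on the same strand by the read-through gene BCL2L2-PABPN1, which no table lists, so its counts are uncertain. H82 held 36.1 ± 0.308 CPM, SHP-77 34.6 ± 1.19, H209 31.6 ± 0.752 and H187 27.7 ± 1.66. H82 and SHP-77 were not separated (difference 0.06, adjusted p = 0.24, or 0.033 with the GC correction), while H187 lay below H209 by 0.19 ± 0.05 (adjusted p = 0.0021). H209 lay below SHP-77 by 0.13 ± 0.05 (adjusted p = 0.022). That last call ended without H209 DMSO library 3 (0.077), without SHP-77 DMSO library 3 (0.10) and with the GC correction (0.15).

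MCL1 fell into 2 levels that cut across the ISL1 classes. The gene, on hg38 chromosome 1 (150574551 to 150579738, minus strand), reached 434 ± 8.88 CPM in SHP-77 and 426 ± 7.54 in H187. H209 held 280 ± 7.53 CPM and H82 279 ± 10.6. The upper pair differed by 0.02 on the log2 scale (adjusted p = 0.55) and the lower pair by 0.01 (adjusted p = 0.88, with the sign turned under RLE scaling and DESeq2). Between the pairs the gap was 0.60 to 0.63, and the libraries did not overlap.

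The effectors differed between lines mostly through H187. BAX, on hg38 chromosome 19 (48954860 to 48961798, plus strand), encodes the effector that moves from the cytosol to mitochondria. H187 led with 81.5 ± 3.85 CPM, then came H209 with 57.3 ± 1.53, H82 with 52.5 ± 3.00 and SHP-77 with 47.4 ± 1.94. H187 exceeded the next line, H209, by 0.51 ± 0.05 (adjusted p = 1.1e-10). The step from H209 to H82 was 0.13 ± 0.05 (adjusted p = 0.020), and it did not pass with RLE scaling (0.053), with DESeq2 (0.066), with the GC correction (0.33) or without any of 4 libraries, H209 DMSO 1 (0.068) and 2 (0.052) and H82 DMSO 1 (0.082) and 2 (0.088). The step from H82 to SHP-77 was 0.15 ± 0.05 (adjusted p = 0.0069), lost without H82 DMSO library 3 (0.079).

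BAK1 encodes the effector that resides in the mitochondrial membrane, and it showed the opposite order for H187. It lies on hg38 chromosome 6 (33572546 to 33580293, minus strand), inside the opposite-strand pseudogene GGNBP1, which no table lists. Its DMSO libraries read 13.6, 14.0 and 13.6 CPM in H187, 47.3, 41.3 and 41.9 in H209, 33.5, 34.1 and 30.9 in H82 and 39.2, 39.5 and 41.0 in SHP-77. H187 was far below the other lines, with no overlap of libraries. BAK1 in H187 was 3.17-fold lower than in H209 (log2 difference -1.66 ± 0.06, adjusted p = 3.1e-20), 2.90-fold lower than in SHP-77 and 2.39-fold lower than in H82. H209 exceeded SHP-77 by 0.13 ± 0.05 (adjusted p = 0.031). That small step did not pass with RLE scaling (0.052), with DESeq2 (0.082) or without H209 DMSO library 1 (0.31) or SHP-77 DMSO library 1 (0.095) or 2 (0.077). Across the 6 genes and 6 pairs of lines, 31 of 36 differences passed, and these pairs share their libraries. Of all 11408 genes listed for the 4 lines, 86.0% to 88.9% passed per pair (86.0% for H187 against H209, 88.7% for H187 against H82, 88.2% for H187 against SHP-77, 88.8% for H209 against H82, 87.2% for H209 against SHP-77 and 88.9% for H82 against SHP-77), so the count for the 6 is near the background and is no result about them.

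**Figure D1:**
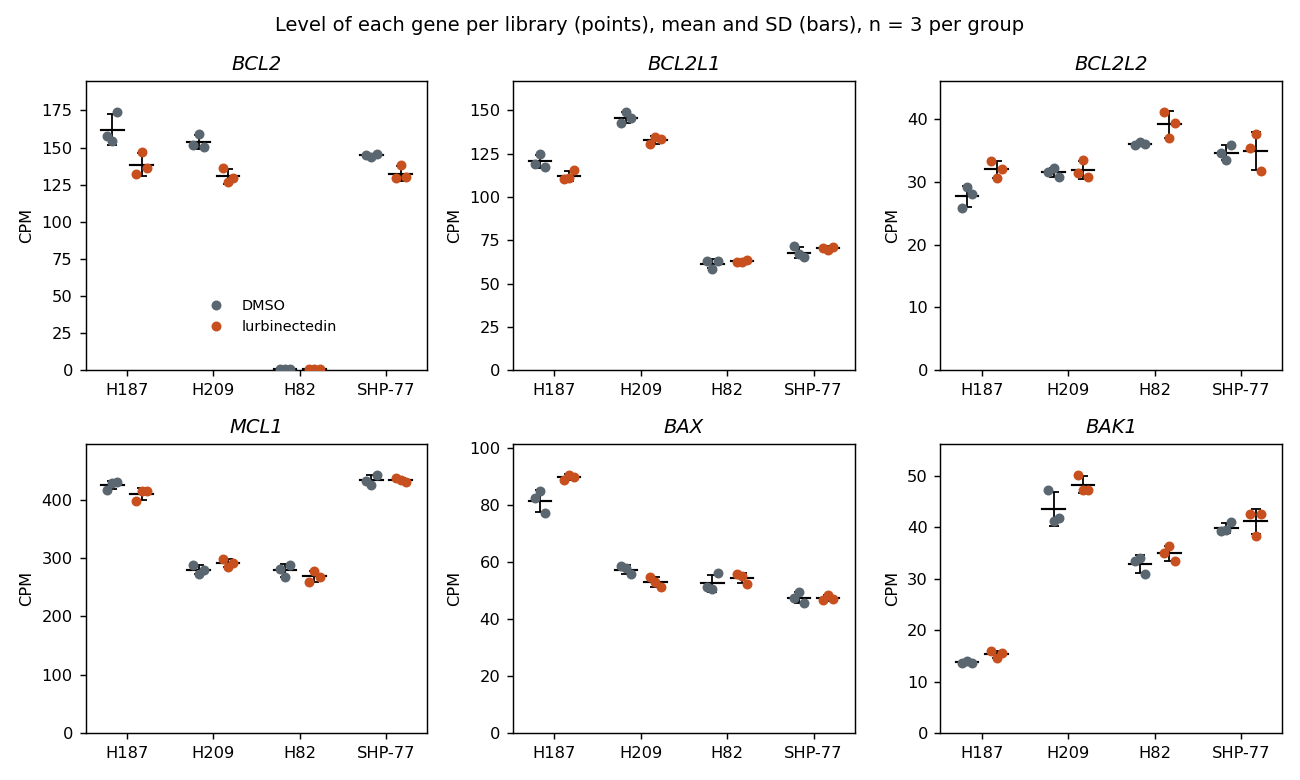
Level of each of the 6 genes in CPM (vertical axes from 0) in the 4 lines, with each library as a point, DMSO in grey and lurbinectedin in orange, and bars for the mean and SD of 3 libraries. BCL2 lies near 0 in H82 and BAK1 is low in H187, while the shifts with the drug are small beside the gaps between lines.

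Genes can be set side by side only per length, so CPM were divided by the exon length given in the deposited tables (RPKM), and each survival gene was then expressed as a share of the summed RPKM of the 4. MCL1 was the largest share in every line, at 70.7% ± 0.362 for H82, 67.3% ± 0.545 for SHP-77, 60.6% ± 0.0567 for H187 and 47.7% ± 1.21 for H209 under DMSO. BCL2L1 held the next share in H209 (30.1% ± 0.727), H187 (20.8% ± 0.714) and H82 (18.9% ± 0.259). In SHP-77 BCL2 (13.9% ± 0.120) and BCL2L1 (12.8% ± 0.615) were close together. The makeup of H82 was the odd one: BCL2 gave 0.125% ± 0.0373 of its survival RNA, and BCL2L2 gave 10.2% ± 0.433 against 4.40% to 6.00% elsewhere. The sum itself was lowest there, at 96.5 ± 3.26 RPKM, against 172 ± 3.20 in H187, 158 ± 2.51 in SHP-77 and 144 ± 0.797 in H209. The shares depend on the length taken for each gene: with the longest GENCODE transcript in place of the exon length, the share of BCL2L1 came to 35.7% for H209, 25.1% for H187, 22.5% for H82 and 15.7% for SHP-77. In SHP-77 it then stood above BCL2 (11.7%), while MCL1 stayed the largest share in each line.

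**Figure D2:**
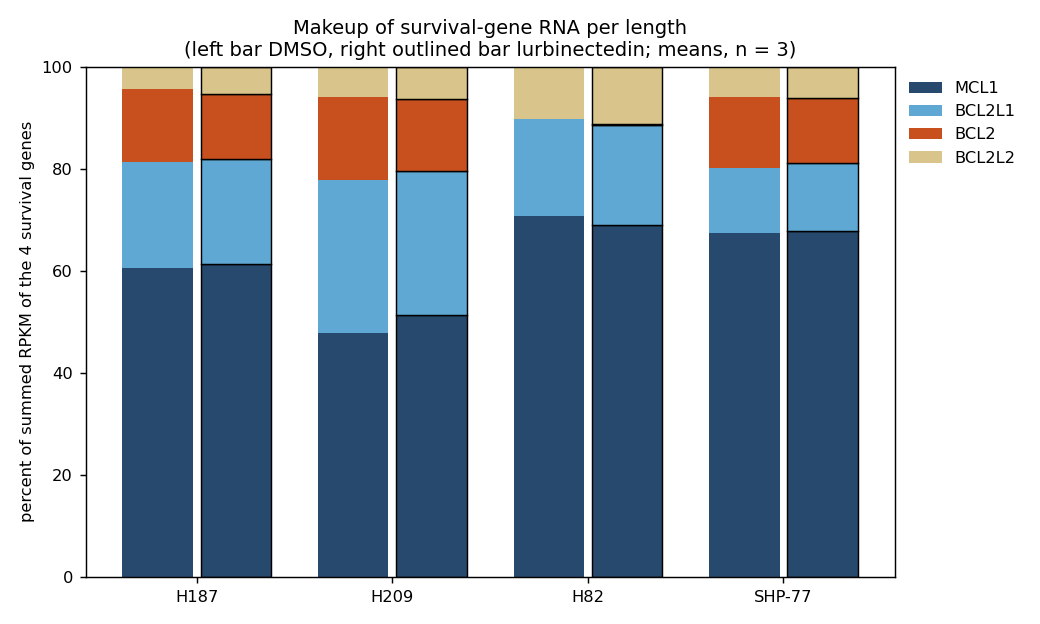
Share of MCL1, BCL2L1, BCL2 and BCL2L2 in the summed RPKM of these 4 genes (vertical axis, percent), as means of 3 libraries, with DMSO on the left and lurbinectedin in the outlined bar on the right of each line. MCL1 fills 47.7% to 70.7% of each DMSO bar, and BCL2 is too thin to see in H82.

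The ratio of effector to survival RNA, BAX plus BAK1 over the 4 survival genes in RPKM, ordered the lines in yet another way. Under DMSO it was 0.572 ± 0.0141 in H82, 0.443 ± 0.0148 in H209, 0.399 ± 0.0211 in H187 and 0.346 ± 0.0131 in SHP-77. Both ISL1-low lines stood at the ends of this order, H82 at the top and SHP-77 at the bottom, and no library of either overlapped those of another line. The effector sum alone was highest in H187 (68.7 ± 3.05 RPKM), then H209 (63.7 ± 2.43). It was 55.2 ± 1.52 RPKM in H82 and 54.5 ± 1.18 in SHP-77, so H82 was not the line highest in effector RNA. Within the effectors, BAX exceeded BAK1 by 9.97 ± 0.346 times in H187, against 2.7 ± 0.30 in H82, 2.22 ± 0.134 in H209 and 2.00 ± 0.120 in SHP-77. With lurbinectedin the ratio of effector to survival RNA went to 0.464 ± 0.00679 in H187, where its 3 libraries (0.471, 0.460 and 0.460) lay above the 3 DMSO libraries (0.411, 0.412 and 0.375). In H209 it was 0.449 ± 0.0108, in SHP-77 0.351 ± 0.00523 and in H82 0.605 ± 0.0248, and libraries of the treatments overlapped in these 3 lines. These ratios are descriptions and were not tested.

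**Figure D3:**
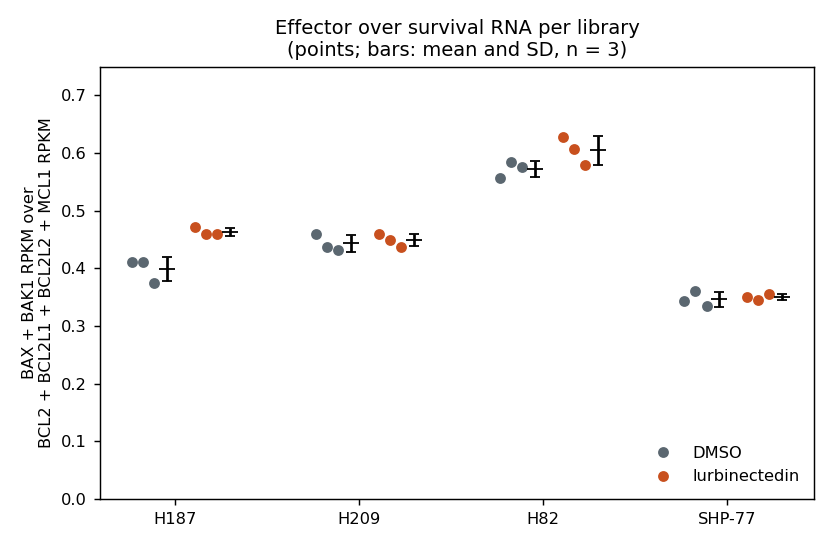
Summed RPKM of BAX and BAK1 over that of BCL2, BCL2L1, BCL2L2 and MCL1 (vertical axis from 0) in each library (points), with the mean and SD of 3 libraries beside them. H82 lies highest and SHP-77 lowest, and the treated libraries stand apart from DMSO in H187.

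Lurbinectedin lowered BCL2 in the 3 lines that express it. In H187 it went from 158, 154 and 174 CPM to 132, 147 and 136 CPM, and the groups did not overlap. The log2 fold change was -0.22 ± 0.05 (adjusted p = 0.0022), a drop of 14.2%. H209 went from 152, 159 and 151 CPM to 136, 127 and 129 CPM, again without overlap, at -0.23 ± 0.03 (adjusted p = 3.2e-07). SHP-77 moved less, from 145, 144 and 146 CPM to 129, 138 and 130 CPM, at -0.13 ± 0.03 (adjusted p = 0.012). The fall in H187 and that in H209 passed under each of the 8 other settings and without each of 6 libraries. That in SHP-77 did not pass without lurbinectedin library 1 (adjusted p = 0.11) or 3 (0.10), or with all 24 libraries in 1 fit (0.14). In H82 the 3 treated libraries read 0.700, 1.14 and 0.758 CPM and overlapped those of DMSO, at 1.06, 0.751 and 0.584 CPM. The interval of the log2 fold change there, -0.47 to 0.69, is too wide at this depth to place the change. BCL2 is a long gene, and over all tested genes that span 98.0 to 392 kb the median change was -0.11 for H209, -0.09 for H187, -0.05 for SHP-77 and -0.04 for H82. BCL2 lay below these medians in H187, H209 and SHP-77, with 22.7%, 26.9% and 20.6% of such genes lower still. The part of gene length in its fall was not tested.

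BCL2L1 fell in H209 and did not pass in the other lines. In H209 its libraries went from 143, 149 and 146 CPM to 130, 135 and 134 CPM, which do not overlap, and the log2 fold change was -0.13 ± 0.03 (adjusted p = 0.0011). In H187 they went from 119, 125 and 118 CPM to 111, 111 and 116 CPM, also without overlap, but the change of -0.10 ± 0.04 did not pass (adjusted p = 0.12). It did pass with all 24 libraries in 1 fit (0.034) and with the GC correction (0.0074). In H82 the log2 fold change was 0.04 (interval -0.05 to 0.13) and in SHP-77 0.05 (interval -0.03 to 0.14), with overlapping libraries in both. Genes of like span had medians of 0.00 in H187 and H209, so BCL2L1 lay below the middle of its length class there, with 21.5% and 22.9% of such genes lower.

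BCL2L2 passed in 1 line, H187, where it rose. There it went from 25.9, 29.2 and 28.1 CPM to 33.4, 30.6 and 32.0 CPM, without overlap, at 0.21 ± 0.06 (adjusted p = 0.010). The call ended without DMSO library 1 (0.056) or lurbinectedin library 1 (0.066). Genes of like span had a median of 0.03 in H187, and 79.2% of them lay below BCL2L2. In H82 the treated libraries (41.1, 37.0 and 39.4 CPM) also lay above DMSO (35.8, 36.4 and 36 CPM), but 0.13 ± 0.05 did not pass (adjusted p = 0.19, unadjusted p = 0.020). H209 (0.02) and SHP-77 (0.01) had overlapping libraries. Whether H187 differs from H209 here was tested and did not pass (H209 minus H187 -0.19 ± 0.08, adjusted p = 0.12).

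MCL1, the most abundant of the survival genes, showed no call in any line. Its log2 fold change was 0.07 ± 0.03 in H209 (adjusted p = 0.080), -0.05 ± 0.03 in H187 (0.30), -0.05 ± 0.04 in H82 (0.59) and 0.00 ± 0.03 in SHP-77 (0.98). The 95% intervals bound the change: from -0.05 to 0.06 for SHP-77, from -0.13 to 0.04 for H82 and from -0.12 to 0.02 for H187. In H209 the interval, 0.0035 to 0.13, left out 0 (edgeR unadjusted p = 0.039). At 7391 to 14566 counts per library, MCL1 had the deepest coverage of the 6. In H209 the small rise passed with the GC correction (0.011) and without DMSO library 1 (0.034). The difference in response, H209 minus H187, was 0.11 ± 0.05 and did not pass (interval 0.02 to 0.21, adjusted p = 0.12).

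BAX moved in opposite directions in the ISL1-high lines. In H187 it went from 82.3, 84.8 and 77.3 CPM to 88.5, 90.6 and 89.9 CPM, a log2 fold change of 0.14 ± 0.05 (adjusted p = 0.026). In H209 it went from 58.6, 57.7 and 55.6 CPM to 54.7, 53.0 and 51.1 CPM, a change of -0.11 ± 0.04 (adjusted p = 0.021). Neither pair of groups overlapped, yet neither call was firm by itself. The rise in H187 was lost with the GC correction (0.11) and without DMSO library 3 (0.13) or lurbinectedin library 1 (0.058), 2 (0.070) or 3 (0.074). The fall in H209 was lost with DESeq2 (0.066) and without DMSO library 1 (0.081) or 2 (0.062) or lurbinectedin library 3 (0.14). In H82 (0.06, interval -0.04 to 0.16) and SHP-77 (0.00, interval -0.10 to 0.10) the libraries overlapped. Genes of like span had medians of 0.04 in H187 and 0.05 in H209, with 70.0% and 21.9% of them below BAX. The start region of BAX is shown because the gene's response differed between these lines, as the test further on gives. It runs up to the base before the gene in the deposited tables (RefSeq sequence, GRCh38.p14, chr19:48954625-48954859, plus strand, 5′ to 3′), with each CACGTG E-box, the letters that MYC and related factors bind, in capitals.
BAX: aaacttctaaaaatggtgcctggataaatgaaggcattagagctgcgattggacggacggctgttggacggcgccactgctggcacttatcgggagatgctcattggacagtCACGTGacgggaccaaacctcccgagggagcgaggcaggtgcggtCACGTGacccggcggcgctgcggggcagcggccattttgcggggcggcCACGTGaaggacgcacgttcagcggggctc
The printed stretch holds 3 E-boxes, and the full 250-base window, which runs on to the start in RefSeq, holds 4. CACGTG reads the same on both strands and overlaps none of the other motifs here. Of the 35116 windows, 6.34% hold at least 1 and 0.0142% hold at least 4. The windows of BAK1, BCL2 and BCL2L1 hold 0. A match of letters is not a bound site, and binding was not measured.

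BAK1 rose in H209, from 47.3, 41.3 and 41.9 CPM to 50.2, 47.28 and 47.32 CPM. The 2 lowest treated libraries were only just above the highest DMSO library, which read 47.27 CPM. The log2 fold change was 0.16 ± 0.05 (adjusted p = 0.0028), and without DMSO library 2 it was 0.12 (adjusted p = 0.053). In H187 the change was as large, 0.16 ± 0.07, from 13.6, 14.0 and 13.6 CPM to 15.9, 14.6 and 15.5 CPM, without overlap, but did not pass (adjusted p = 0.11). H82 (0.10, interval -0.01 to 0.21) and SHP-77 (0.05, interval -0.06 to 0.16) had overlapping libraries. Genes of like span had a median of 0.05 in H209, and 68.4% of them lay below BAK1.

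By line, 3 of the 6 genes passed in H187, where 24.9% of all genes tested passed, and 4 of 6 in H209, where 45.2% passed. In SHP-77 1 of 6 passed (background 5.19%) and in H82 0 of 6 (background 2.92%), where BCL2L2 alone had an unadjusted p under 0.05 and DESeq2 also called 0 of 6. Libraries of the treatments did not overlap for 6 of 6 genes in H187 (38.7% of all genes), 4 of 6 in H209 (52.2%), 1 of 6 in H82 (21.7%) and 1 of 6 in SHP-77 (22.1%). The changes that passed were small, from 0.11 to 0.23 in size on the log2 scale.

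**Figure D4:**
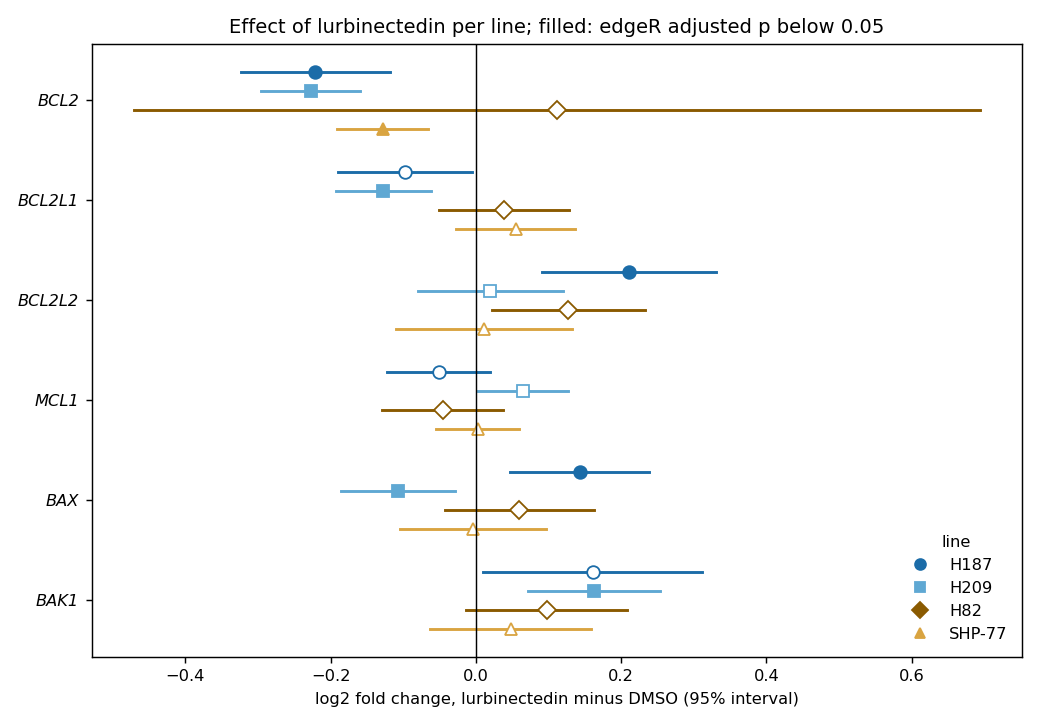
Log2 fold change of each gene, lurbinectedin minus DMSO (horizontal axis), with its 95% interval in each of the 4 lines, where a filled symbol marks an edgeR adjusted p below 0.05. BCL2 lies left of 0 in H187, H209 and SHP-77, BAX lies on opposite sides in H187 and H209, and the interval of BCL2 in H82 is wide.

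The study's design asks whether ISL1-high lines respond differently, and among the 6 genes this was so for BCL2L1. The effect averaged over the ISL1-high lines, minus the average over the ISL1-low lines, was -0.16 ± 0.04 (interval -0.24 to -0.08, adjusted p = 0.0013). The call held under each of the 5 other settings and without each of the 24 libraries, with adjusted p up to 0.0040. The other 5 genes did not pass, and in all 1 of 6 did, while 31.6% of the 11408 shared genes passed. For BCL2 the difference was -0.22 ± 0.12 (adjusted p = 0.19). It reached 0.048 without H82 DMSO library 1, and it rests on a line in which BCL2 has few counts. A further contrast that leaves out H82, chosen after these values were seen, set SHP-77 against the mean of H187 and H209. There BCL2 differed by 0.10 ± 0.06 (interval -0.02 to 0.22, adjusted p = 0.22), so a weaker fall in SHP-77 was not shown. BCL2L1 differed by 0.17 ± 0.05 (adjusted p = 0.0070), again 1 of 6 genes, where 23.1% of all genes passed. This contrast shares its libraries with the class comparison.

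Within the classes, BAX was the member whose response differed. The effect in H209 minus that in H187 was -0.25 ± 0.06 (interval -0.38 to -0.13, adjusted p = 0.0043), and it passed under all 6 other settings and without each of the 24 libraries, with adjusted p up to 0.020. This was 1 of 6 genes where 11.1% of all genes passed. BCL2 (-0.01, interval -0.14 to 0.13), BCL2L1 (-0.03, interval -0.14 to 0.07) and BAK1 (0.00, interval -0.17 to 0.17) had no detected difference between these lines. Between SHP-77 and H82, 0 of 6 genes passed, by edgeR and by DESeq2 and with none under an unadjusted p of 0.05, and 0.333% of all genes did.

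Lists of genes around this switch were chosen by function with earlier results of these data known. Their counts stand beside the share of all genes called, which was 24.9% in H187, 45.2% in H209, 5.19% in SHP-77 and 2.92% in H82. Of 8 BH3-only genes, which act against the survival proteins, 4 were higher and 1 lower in H187 and 6 were higher in H209. In H209 BBC3 (PUMA) went from 2.36 ± 0.499 to 11.9 ± 0.991 CPM (log2 fold change 2.35 ± 0.12), HRK from 5.54 ± 1.05 to 19.3 ± 1.07 (1.81 ± 0.09) and PMAIP1 (NOXA) from 7.78 ± 0.972 to 17.2 ± 0.689 (1.15 ± 0.08). In H187 these genes again had the smallest adjusted p of the list, at 0.90 ± 0.14 for BBC3, 0.63 ± 0.10 for HRK and 0.26 ± 0.05 for PMAIP1. In SHP-77 1 of 8 passed, BAD (0.21 ± 0.05), and in H82 0 of the 6 listed. The list's median log2 fold change was highest for H209 (0.21), followed by H187 (0.10), H82 (0.02) and SHP-77 (0.01), beside 0.00 for all genes in each line. By comparison, the changes that passed among the survival and effector genes were at most 0.23 in size.

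Downstream of the effectors, 4 of 12 apoptosome and caspase genes rose and 1 fell in H187, 3 rose and 2 fell in H209, and 0 passed of 11 in H82 and of 12 in SHP-77. The share of all genes called was 24.9% in H187 and 45.2% in H209, so the count in H209 is near the background. CASP2, a caspase with a long prodomain, rose by 0.20 ± 0.04 in H187 and 0.19 ± 0.03 in H209. HTRA2, a protease released with cytochrome c, rose by 0.24 ± 0.06 in H187 and 0.18 ± 0.05 in H209. Of the inhibitors of apoptosis, 1 rose and 2 fell of 5 in H187 (24.9% of all genes called) and 1 rose and 3 fell of 4 in H209 (45.2%). BIRC5 (survivin), which also serves in cell division, fell by 0.29 on the log2 scale in H187 and by 0.32 in H209. BIRC6, a giant ubiquitin ligase, fell by 0.20 and by 0.13. BIRC2 (cIAP1) rose by 0.16 ± 0.05 in H209, and BIRC3 (cIAP2) rose in H187 from a level of 0.476 ± 0.0942 CPM to 1.1 ± 0.50 CPM. In H82 (4 listed) and SHP-77 (5 listed) 0 of these genes passed.

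Of 9 genes listed as regulators of the level or activity of the family's proteins, 5 fell in H187 (24.9% of all genes called). In H209 5 fell and 1 rose (45.2%). The part of gene length in these falls was not tested. GSK3B, a kinase that marks MCL1 for degradation, fell in 3 lines: by 0.27 on the log2 scale in H187, by 0.20 in H209 and by 0.11 in SHP-77, the only member of the list to pass there. USP9X, which removes ubiquitin from MCL1, fell by 0.21 and by 0.14, and HUWE1, a ubiquitin ligase of MCL1, fell by 0.18 in H187 and by 0.08 in H209. CDK9, the kinase that releases paused RNA polymerase II, rose by 0.19 ± 0.04 in H209. In H82 0 of 9 passed. Of the more distant relatives with a BCL2 fold, 3 of 7 are listed for H187, H209 and H82 and 2 for SHP-77. BCL2L13 (0.13 ± 0.03) and BOK (0.23 ± 0.06), an effector-like member, rose in H209, and 0 passed elsewhere.

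To describe how each of the 6 varied over the 8 groups, the protein-coding genes with the most similar log2 CPM over the group means were sought among 10404. With 8 means from 4 lines, such a list mostly reflects which lines are high, so r is given with no test. BCL2 was most similar to ERO1B, RBFOX2 and ID2 (Pearson r = 0.999, 0.999 and 0.998), all low in H82. BCL2L1 was most similar to PCGF5, H2AFX and FAM89B (0.995 to 0.998), MCL1 to DCUN1D4, CEND1 and SNX6 (0.992 to 0.994), BAX to BCL7A, NAPA and ULK1 (0.989 each) and BAK1 to ADAL, OPLAH and AADAT (0.996 to 0.997). BCL2L2, which varied least, was most similar to PARS2, INF2 and HTRA2 (0.939 to 0.945). Over the groups BCL2 ranged by 6.98 on the log2 scale, BAK1 by 1.78, BCL2L1 by 1.24, BAX by 0.92, MCL1 by 0.69 and BCL2L2 by 0.49.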

How the data were processed

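Total RNA of 24 cultures was measured by sequencing. Per the labels' protocols, RNA was purified on columns and made into stranded libraries after ribosomal RNA was removed. STAR 2.7.10a, featureCounts, Subread 2.0.3 and edgeR 4.2.0 were used on hg38, per the submitters' processing notes, while the annotation, the strand setting and the low-count filter are not given in the sources used here. The authors deposited raw counts per gene for each line, with their log2 CPM, log2 fold change, signed fold change (a score), p-value and false discovery rate, per the file headers. The smallest summed count of a listed gene was 59, so rare genes were left out before deposition.

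Counts were tested in R 4.3.3 with edgeR 4.0.16: filterByExpr (minimum count 10, minimum total 15), TMM scaling and the quasi-likelihood test, with Benjamini-Hochberg adjustment over all genes tested and a threshold of 0.05. Every adjusted p is from this test unless DESeq2 1.42.0 is named. Drug effects used the 6 libraries of a line. Differences in response used all 24 libraries, and levels under DMSO the 12 DMSO libraries, on the 11408 genes listed for every line, with a mean per group. CPM used TMM factors over 24 libraries and the total count of each library, 24226553 to 36415190. RPKM is that CPM per kilobase of deposited exon length. The tests of drug effects and response differences were tried on simulated data, with changes larger than those that passed for the 6 genes. That trial does not show how well changes as small as these are found. Replicates differed by more than counting noise (chi-square per gene 2.28 to 10.1), and the design text calls them biological triplicates.

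The members, the gene lists and the tests were chosen with earlier results of these data known. Beside the 6 members and ISL1, up to 3 genes per list and line, those with the smallest adjusted p past the threshold, are named, and the 3 genes closest in pattern to each member. Some genes that this rule names are not reported here. Alternatives were RLE scaling, other filters, DESeq2, a replicate block, 1 fit of all libraries, leaving out each library and the authors' deposited table. A GC correction (lowess, span 0.3), another gene length and the contrast of SHP-77 with H187 and H209 were added after the data were seen. Promoter sequences are from RefSeq and were found for BCL2, BCL2L1, BAX and BAK1.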

Additional observations from a re-analysis of the deposited data

Results flagged for a closer look

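The response of BCL2L1 to lurbinectedin differed between the ISL1-high and the ISL1-low lines: the log2 difference was -0.16 (adjusted p = 0.0013, edgeR's quasi-likelihood test), with lower treated than DMSO libraries in all 3 replicates of H187 and of H209 and overlapping libraries in H82 and SHP-77. In the contrast of SHP-77 with the mean of H187 and H209, which uses some of the same libraries and was chosen after values were seen, BCL2L1 differed by 0.17 (adjusted p = 0.0070).

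The response of BAX differed between the ISL1-high lines themselves: H209 minus H187 was -0.25 on the log2 scale (adjusted p = 0.0043). All 3 treated libraries lay above DMSO in H187 and below it in H209.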

How the results depend on the processing

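Of the calls on the drug's effect and on differences in response, those that held in every setting tried, each library left out included, were the fall of BCL2 in H187 and H209, the fall of BCL2L1 in H209, the response difference of BCL2L1 between the classes (and between SHP-77 and the mean of H187 and H209) and that of BAX between H187 and H209. Other calls on the drug's effect were lost under the settings given beside each gene above and, for BAX in H187, under the replicate block as well, with the cause not tested. The numbers of genes called in H187 (2402 to 3664) and H209 (5102 to 6555) stayed within 1.5 times of 3486 and 6513. Other counts moved more. In H82, 395 genes passed, against 755 with the replicate block, 194 with the GC correction, 652 in the authors' deposited table, 635 with all 24 libraries in 1 fit, and 93 to 1397 with a library left out. In SHP-77, 737 passed, against 458 with all 24 libraries in 1 fit, where 0 of the 6 members passed, and 417 to 706 with a library left out. For SHP-77 minus H82, 38 passed, against 59 with DESeq2, 18 with the replicate block, 24 with only the 12 libraries of these lines, and 18 to 86 with a library left out. The cause of these shifts was not tested.

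With a library left out, the number of members called was 2 to 4 for H209, 1 to 3 for H187, 0 to 1 for SHP-77 and 1 to 2 for the class difference. Replicate numbers did not pair libraries (r of same-numbered libraries in H187 -0.02, -0.12 and -0.17), and not every library correlated best with its own number. The replicate block ended 1 call for a member, that of BAX in H187 (adjusted p = 0.058). These signs turned, all for values that passed in neither setting: MCL1, H209 minus H82 under DMSO (RLE -0.015, DESeq2 -0.015); with the GC correction, BAX (-0.0025) and BCL2L1 (-0.0093) in H82; BAK1, H209 minus H187 (RLE 0.0020, GC correction 0.016, DESeq2 0.0014, 12 libraries 0.0061); and for SHP-77 minus the mean of H187 and H209, BAX (GC correction 0.0057) and MCL1 (filter at 1 CPM -0.00031, GC correction -0.0041). With a library left out, signs also turned within these ranges: MCL1 H209 minus H82 under DMSO -0.023 to 0.029, BCL2L2 in H209 -0.016 to 0.047, BCL2 in H82 -0.14 to 0.38, BAX (-0.033 to 0.026), BCL2L2 (-0.045 to 0.078) and MCL1 (-0.010 to 0.019) in SHP-77, BAK1 (-0.038 to 0.060) and BCL2 (-0.063 to 0.037) for H209 minus H187, BAX for the class difference (-0.034 to 0.0054), BAK1 (-0.073 to 0.0054), BCL2 (-0.51 to 0.022) and BCL2L1 (-0.0027 to 0.061) for SHP-77 minus H82, and BAX (-0.047 to 0.010) and MCL1 (-0.015 to 0.016) for SHP-77 minus the mean of H187 and H209. A RefSeq transcript length was planned for RPKM and not run, since that table gives genomic length. Depth limits BCL2 in H82, at 17 to 36 counts a library.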
